A study of Homo sapiens with 6 samples.

Results

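The 10 alpha and beta tubulin isotype genes described here were the gene rows with the symbols TUBB3, TUBB2A, TUBB2B, TUBB4A, TUBB4B, TUBB, TUBB6, TUBA1A, TUBA1B and TUBA1C, out of 28953 rows in all (27961 genes and 992 families of repeated sequence). Their rows were found by symbol, and the list itself was chosen with earlier results of these data known. All 10 had enough reads to be tested. The cells were SH-SY5Y, a human neuroblastoma line with features of sympathetic neurons, grown in serum, infected with virus and kept in puromycin so that only hairpin-carrying cells survived. There were 3 groups of 2 libraries: the TARDBP hairpin (TRCN0000016038), aimed at the mRNA of the RNA-binding protein TDP-43 and called the knockdown below, and the control hairpins SHC007 and SHC016, called control 1 and control 2. All 3 groups had the same infection and selection. A single hairpin sequence stood for the knockdown, so an effect of that sequence apart from TARDBP cannot be told apart from an effect of TARDBP.

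Microtubules are built from dimers of 1 alpha and 1 beta tubulin, and vertebrates encode each partner in several genes, called isotypes. The acidic tail at the end of the chain is among the most variable stretches of many of their products. TUBB3, TUBB2A, TUBB2B, TUBB4A and TUBA1A are known for high levels in neurons and are called neuronal isotypes below, although TUBB2A is also found elsewhere. TUBB, TUBB4B, TUBB6, TUBA1B and TUBA1C are made in many cell types and are called general isotypes. Dividing cells need tubulin for the spindle and neurons need it for axons and dendrites. Cells also destroy tubulin mRNA during translation when free dimer is in excess, by reading the first residues of the new chain.

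The coding sequences show how alike the members are, which limits how far short reads can tell them apart. The last 60 coding bases of each beta gene, which encode the end of the acidic tail and the stop codon, are shown for that reason. Capitals mark bases that differ from TUBB in an alignment of the whole coding sequences, taken from GENCODE release 29 transcripts.
TUBB3: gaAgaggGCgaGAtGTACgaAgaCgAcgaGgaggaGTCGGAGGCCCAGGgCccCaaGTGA
TUBB2A: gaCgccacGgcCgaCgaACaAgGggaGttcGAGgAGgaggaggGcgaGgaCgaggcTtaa
TUBB2B: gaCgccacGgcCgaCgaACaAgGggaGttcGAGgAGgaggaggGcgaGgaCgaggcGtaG
TUBB4A: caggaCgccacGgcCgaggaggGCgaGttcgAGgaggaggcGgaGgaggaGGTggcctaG
TUBB4B: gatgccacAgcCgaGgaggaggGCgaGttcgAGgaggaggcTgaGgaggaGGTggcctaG
TUBB: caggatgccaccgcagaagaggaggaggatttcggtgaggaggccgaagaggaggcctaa
TUBB6: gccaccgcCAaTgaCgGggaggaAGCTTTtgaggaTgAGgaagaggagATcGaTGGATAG

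The tail of TUBB3 stood farthest from that of TUBB, with 33 of 60 bases in capitals against 14 to 24 in the other 5 beta genes. TUBB2A and TUBB2B differed from each other at 2 of the 60 positions. Over the whole coding sequence TUBB2A and TUBB2B were 98.1% identical, the 3 alpha pairs 95.9 to 97.2%, and the 21 beta pairs 80.8 to 98.1%. Alpha and beta genes shared 53.2 to 55.8% of positions. The first 12 coding bases encode the start of the chain that the tubulin mRNA control reads. They were the same in the 3 alpha genes and came in 5 versions in the 7 beta genes. All 5 beta versions encode the same residues, Met-Arg-Glu-Ile. Capitals follow the start codon.
TUBA1A, TUBA1B and TUBA1C: atgCGTGAGTGC
TUBB and TUBB4B: atgAGGGAAATC
TUBB3 and TUBB6: atgAGGGAGATC
TUBB2A: atgCGCGAGATC
TUBB2B: atgCGTGAGATC
TUBB4A: atgCGGGAGATC

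Windows of 50 bases give a measure of how much sequence a transcript shares with others, which is not itself the share of reads affected. Of the windows in the TUBB2A transcript, 65.5% also occurred in a transcript of another locus, as did 52.2% for TUBB2B, 62.7% for TUBA1B, 41.1% for TUBA1A and 25.1% for TUBA1C. The share was 18.2% for TUBB, whose matches included pseudogenes, and 9.89% for TUBB4B, 8.90% for TUBB3, 5.99% for TUBB4A and 0.993% for TUBB6. For TUBB3 a further gene model lies over the same locus on the same strand, and with it the share was 89.4%. With windows of 100 bases the shares at other loci were lower. They were 56.4% for TUBB2A, 46.2% for TUBB2B, 37.2% for TUBA1B, 18.3% for TUBA1A, 11.5% for TUBA1C and 5.10% for TUBB. The sources used here do not say how the authors assigned reads that match several genes. The levels of TUBB2A, TUBB2B, TUBA1A, TUBA1B and TUBA1C are therefore uncertain individually. The sums of TUBB2A with TUBB2B and of the 3 alpha genes are given below beside their separate values. The level of TUBB3 is uncertain too, since it is not known whether the further gene model at its locus entered the counting.

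Library totals ran from 18605745 to 21698339 counts. Levels below are CPM, counts scaled to a common library size after adjustment by trimmed means (TMM), and a gene was called higher or lower at an adjusted p below 0.05 in edgeR's quasi-likelihood test over all 17163 rows tested. The labels do not state whether replicate libraries stem from different cultures, so the spread behind each p-value is that of these libraries and may be purely technical. TARDBP stood at 18.9 and 24.0 CPM in the knockdown, 80.9 and 72.4 in control 1, and 92.7 and 81.5 in control 2, and fell by 1.93 on the log2 scale against the mean of both controls (SE 0.126, adjusted p = 1.68e-05 by edgeR). Of 9 noradrenergic neuroblastoma markers 8 were tested, and the catecholamine enzyme gene TH was at or under 0.147 CPM in every library. The summed noradrenergic level was 1000 to 1131 CPM in the knockdown, 1842 to 2093 in control 1 and 1418 to 1601 in control 2. Its members differed: against the mean 6 of the 8 fell, among them DBH (log2FC -3.83), CHGA (-3.10), PHOX2A (-1.03) and HAND2 (-0.56), and GATA3 rose (0.35). Over all rows tested 24.3% were called lower and 23.9% higher in that comparison. Among 7 mesenchymal markers PRRX1 had no read, and the list summed to 2526 to 2797, 1505 to 1826 and 4107 to 4387 CPM in the same order. Of the 6 tested, COL1A2 (-4.00), COL1A1 (-1.56) and FN1 (-1.12) fell and VIM rose (0.71), beside the same shares over all rows. Against control 1 alone FN1 (log2FC -0.04, adjusted p = 0.807 by edgeR) and GATA3 (0.16, adjusted p = 0.218) were not called. The other markers named here with a log2FC were called against each control. Schwann and glial, epithelial, blood and endothelial markers summed to at most 2.96, 7.01, 19.1 and 0.930 CPM, with KRT5, KRT14 and CDH5 at 0 in every library and 4 of 5, 3 of 4, 3 of 4 and 3 of 3 of their genes under 1 CPM throughout. The part of these marker levels in the tubulin levels was not tested.

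Most tubulin isotype genes were lower in the knockdown than in the mean of both controls, but the control hairpins lay far apart. Against that mean 9 of the 10 fell and none rose, and TUBB4A (log2FC 0.16) was not called. The median log2 fold change (log2FC) of the 10 was -1.17, against 0.04 over all rows tested, of which 24.3% were called lower and 23.9% higher. Against control 2 again 9 fell and none rose (median -1.77, with 26.2% of all rows called lower and 24.0% higher). Against control 1 only TUBB2A, TUBB2B, TUBA1A and TUBB6 fell and TUBB4A rose (median -0.48, with 21.8% of all rows called lower and 21.1% higher). These comparisons share the knockdown libraries. Fewer cells of a kind and less RNA per cell cannot be told apart in such bulk RNA.

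**Figure D1:**
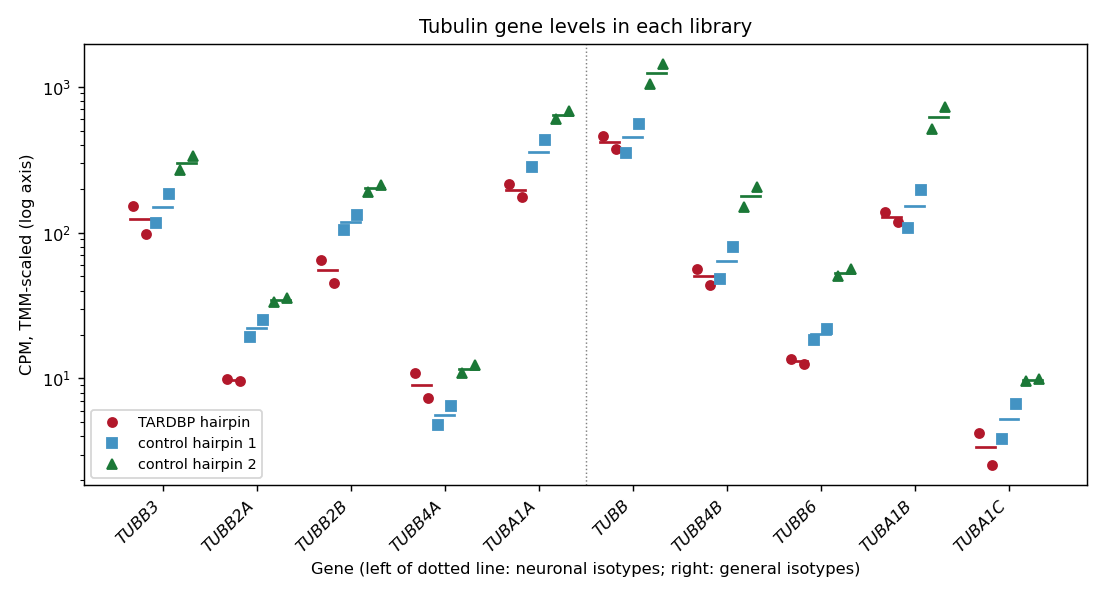
Level of each tubulin isotype gene in each library, in TMM-scaled CPM on a log axis; points are libraries and horizontal bars are means of the 2 libraries of a hairpin. Both libraries in control 2 lie above the other 4 for all 10 genes, and both knockdown libraries lie below all 4 control libraries for TUBB2A, TUBB2B, TUBB6 and TUBA1A.

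Among the neuronal beta isotypes, TUBB2A and TUBB2B fell against each control. TUBB2A, a beta tubulin abundant in brain, stood at 9.98 and 9.66 CPM in the knockdown, 19.4 and 25.0 in control 1, and 33.6 and 35.7 in control 2. The 3 groups did not overlap. TUBB2A fell by 1.50 on the log2 scale against the mean of both controls (SE 0.133, adjusted p = 7.09e-05 by edgeR), by 1.17 against control 1 (SE 0.147, adjusted p = 4.09e-04) and by 1.82 against control 2 (SE 0.146, adjusted p = 4.42e-05).

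TUBB2B, the isotype of migrating and newly formed neurons, stood at 65.1 and 45.2 CPM in the knockdown, 104 and 133 in control 1, and 191 and 211 in control 2, again with no overlap. It fell by 1.48 (SE 0.163, adjusted p = 1.88e-04 by edgeR) to 35.8% of the mean of both controls (95% interval of the fit 27.6 to 46.3%). Against controls 1 and 2 alone it fell by 1.10 and 1.87. When the reads of this near-identical pair were summed before fitting, the log2FC was -1.49 against the mean, -1.11 against control 1 and -1.86 against control 2, each called. These were also the only 2 members still called lower when all 4 control libraries were treated as one group.

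TUBB3, the class III beta tubulin widely used as a neuronal marker, did not separate from control 1. It stood at 151 and 98.0 CPM in the knockdown, 116 and 184 in control 1, and 268 and 333 in control 2. The knockdown libraries thus overlapped those of control 1 and lay under both of control 2. Its log2FC was -0.27 against control 1 (SE 0.249, adjusted p = 0.421 by edgeR, 95% interval -0.83 to 0.30) and it fell by 1.27 against control 2 (SE 0.251, adjusted p = 0.00362). The fall of 0.77 against the mean (adjusted p = 0.0204) was lost without knockdown replicate 2 (log2FC -0.49, adjusted p = 0.151).

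TUBB4A, a beta tubulin of neurons and oligodendrocytes, behaved unlike the other 9. Its levels were low, at 10.8 and 7.32 CPM in the knockdown, 4.79 and 6.51 in control 1, and 10.9 and 12.4 in control 2. The knockdown libraries lay above both of control 1 and under both of control 2. The log2FC was 0.68 against control 1 (SE 0.230, adjusted p = 0.0425 by edgeR) and -0.36 against control 2 (SE 0.218, adjusted p = 0.193, 95% interval -0.86 to 0.13). The rise against control 1 rested on counts of 94 to 209. It was lost with the replicate number as a block (adjusted p = 0.0658), without low-count filtering (adjusted p = 0.0571), and without knockdown replicate 1 (log2FC 0.37, adjusted p = 0.267), control 1 replicate 1 (0.47, adjusted p = 0.219) or either library of control 2 (adjusted p = 0.0620 and 0.0676).

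The neuronal alpha isotype TUBA1A, the main alpha tubulin of developing neurons, fell against each control. It stood at 214 and 175 CPM in the knockdown, 283 and 432 in control 1, and 598 and 676 in control 2, and the groups did not overlap. TUBA1A fell by 1.30 against the mean (SE 0.173, adjusted p = 5.04e-04 by edgeR), by 0.88 against control 1 (SE 0.189, adjusted p = 0.00613). Against control 2 the log2FC was -1.71 (SE 0.193, adjusted p = 2.23e-04 by edgeR).

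The general alpha isotypes overlapped control 1 and fell against control 2. TUBA1B, the alpha tubulin of most cell types, stood at 139 and 118 CPM in the knockdown, 108 and 195 in control 1, and 516 and 725 in control 2. Its log2FC against control 1 was -0.24 (SE 0.260, adjusted p = 0.494 by edgeR, 95% interval -0.83 to 0.36), and it fell by 2.27 against control 2 (SE 0.270, adjusted p = 2.86e-04). That was the largest fall against control 2 among the 10.

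TUBA1C, a minor alpha isotype here, had 4.24 and 2.54 CPM in the knockdown, 3.82 and 6.66 in control 1, and 9.58 and 9.89 in control 2. It overlapped control 1 (log2FC -0.63, 95% interval -1.34 to 0.08, adjusted p = 0.136 by edgeR) and fell by 1.52 against control 2 (adjusted p = 0.00343). Its fall of 1.07 against the mean was lost without knockdown replicate 2 (-0.75, adjusted p = 0.0872). Without control 1 replicate 1 it was called against control 1 as well (log2FC -0.98, adjusted p = 0.0388). The summed counts of the 3 alpha genes fell by 0.66 against control 1 (adjusted p = 0.0358 by edgeR) and by 1.96 against control 2.

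TUBB, the beta tubulin with the highest CPM here and a spindle and interphase component of dividing cells, followed the same pattern as TUBA1B. It stood at 457 and 375 CPM in the knockdown, 349 and 556 in control 1, and 1047 and 1428 in control 2. The knockdown libraries lay between the 2 libraries of control 1. Its log2FC was -0.12 against control 1 (SE 0.223, adjusted p = 0.692 by edgeR, 95% interval -0.63 to 0.39), and it fell by 1.57 against control 2 (SE 0.228, adjusted p = 7.89e-04). The fall of 0.85 against the mean was lost without knockdown replicate 2 (-0.71, adjusted p = 0.0729).

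TUBB4B, a widely made beta tubulin also used in cilia, had 56.6 and 43.9 CPM in the knockdown, 48.3 and 79.7 in control 1, and 150 and 206 in control 2. The log2FC against control 1 was -0.35 (SE 0.242, adjusted p = 0.279 by edgeR), and without replicate 1 of that control it was -0.67 (adjusted p = 0.0474). TUBB4B fell by 1.82 against control 2 (adjusted p = 5.36e-04).

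TUBB6, whose tail differed most from that of TUBB among the general beta isotypes, was the general isotype called lower against both controls. It stood at 13.6 and 12.6 CPM in the knockdown, 18.3 and 21.8 in control 1, and 49.96 and 56.0 in control 2, with no overlap between groups. TUBB6 fell by 0.62 against control 1 (SE 0.132, adjusted p = 0.00593 by edgeR) and by 2.02 against control 2 (SE 0.130, adjusted p = 1.66e-05). The difference from control 1 was of the size of that of TUBA1C, whose SE was larger (0.310), and the genes' changes were not tested against each other. Both knockdown libraries lay below all 4 control libraries for 4 of the 10 members, a pattern seen in 22.8% of all rows tested.

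**Figure D2:**
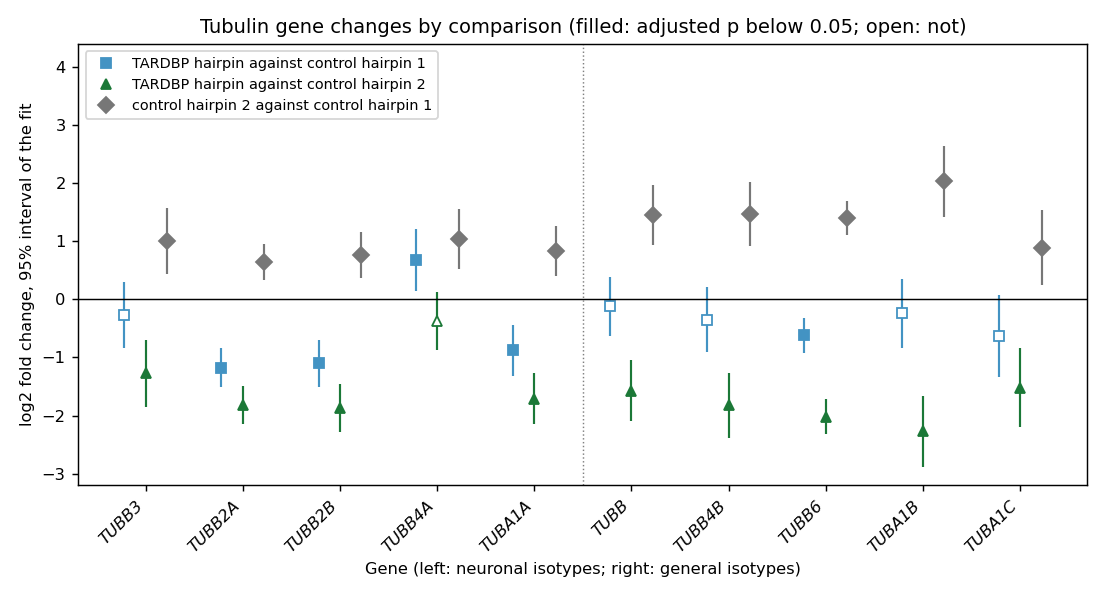
Log2 fold change of each tubulin isotype gene in 3 comparisons, with the 95% interval of the fit; filled symbols were called at an adjusted p below 0.05. Against control 1 TUBB2A, TUBB2B, TUBA1A and TUBB6 fell and TUBB4A rose, whereas between the controls all 10 genes were higher in control 2.

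The control hairpins differed from each other in every member. All 10 genes were higher in control 2 than in control 1, against 22.8% of all rows called higher and 20.4% called lower in that comparison, and the median log2FC was 1.02 against -0.01 over all rows. Both libraries in control 2 also lay above the other 4 libraries in 10 of 10 members, a pattern found in 23.1% of all rows tested. The differences ran from 1.56-fold for TUBB2A (log2FC 0.64, adjusted p = 0.00626 by edgeR) to 4.10-fold for TUBA1B (log2FC 2.04, adjusted p = 6.73e-04). The general genes TUBB (log2FC 1.45), TUBB4B (1.47) and TUBB6 (1.40) differed by 2.64-fold to 2.77-fold. The neuronal genes TUBB3 (1.00), TUBB2B (0.76), TUBB4A (1.04) and TUBA1A (0.83) differed by 1.70-fold to 2.06-fold, and TUBA1C by 1.85-fold (0.89, adjusted p = 0.0330). Without control 1 replicate 1, whose tubulin levels were the lower of that pair, 6 of 10 stayed called, and TUBB3, TUBB2B, TUBB4A and TUBA1C (adjusted p = 0.0547 to 0.187) did not.

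Neuronal and general isotypes did not part along the line between knockdown and controls. The median log2FC against control 1 was -0.88 for the 5 neuronal genes and -0.35 for the 5 general genes, and against control 2 it was -1.71 and -1.82. As a balance in each library, the mean log2(CPM + 1) of the general genes was subtracted from that of the neuronal genes. This difference was -0.00068 and -0.09 in the knockdown, 0.25 and 0.09 in control 1, and -0.36 and -0.50 in control 2. With all members in the score the knockdown libraries thus lay between the controls, and the groups did not overlap. The group means were -0.04 ± 0.06, 0.17 ± 0.11 and -0.43 ± 0.10 (SD, n = 2 libraries each). No test is given, since the balance is a score over chosen members. Without TUBB2A in the neuronal group the knockdown minus control 1 difference shrank from -0.21 to -0.08. That is smaller in size than the within-group SD of the score (0.094), and the libraries of the knockdown and control 1 then overlapped. With the beta genes alone they also overlapped, by a small margin. The separation from control 1 thus depended on genes whose individual levels are uncertain.

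Shares of the tubulin counts placed control 1 highest. TUBA1A held 59.9 and 59.2% of the counts of the 3 alpha genes in the knockdown, 71.8 and 68.2% in control 1, and 53.2 and 47.9% in control 2. TUBB3, TUBB2A, TUBB2B and TUBB4A together held 31.0 and 27.1% of the counts of the 7 beta genes in the knockdown, 37.0 and 34.6% in control 1, and 28.7 and 26.0% in control 2. Here the knockdown libraries overlapped control 2. Within the neuronal set the genes went different ways. TUBB3 made up 12.3 ± 1.74% of all 10 genes' counts in the knockdown, 11.1 ± 0.176% in control 1 and 9.18 ± 0.214% in control 2 (SD, n = 2). TUBB2B made up 5.45 ± 0.507%, 8.99 ± 1.27% and 6.18 ± 0.638%, and TUBB4A 0.895 ± 0.0983%, 0.426 ± 0.0404% and 0.358 ± 0.0300%.

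**Figure D3:**
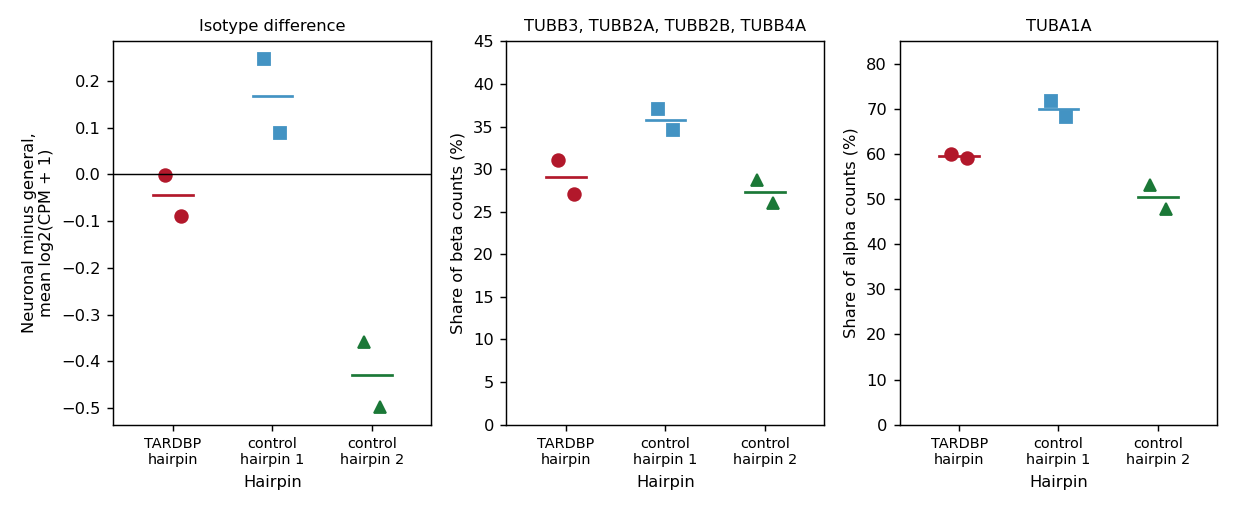
Isotype balance in each library: the neuronal minus general mean log2(CPM + 1), the share of beta tubulin counts on the 4 neuronal beta genes, and the share of alpha counts on TUBA1A; points are libraries and bars group means. Control hairpin 1 is highest in all 3 panels, and the TARDBP hairpin lies between the controls in the left and right panels.

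Levels of different genes depend on transcript length, so CPM was divided by the length in kilobases of the principal GENCODE transcript. This does not correct for sequence shared with other loci, which ran from 0.993% of 50-base windows for TUBB6 to 65.5% for TUBB2A. How reads matching several genes were counted is not known, so the order of the genes is uncertain beyond the spread given here. In the knockdown the order was TUBB (156 ± 21.6 CPM per kilobase), TUBA1A (101 ± 14.4), TUBA1B (78.9 ± 9.10), TUBB3 (70.5 ± 21.3), TUBB4B (30.7 ± 5.49), TUBB2B (27.3 ± 6.98), TUBB6 (6.34 ± 0.319), TUBB2A (6.16 ± 0.143), TUBB4A (3.55 ± 0.967) and TUBA1C (1.13 ± 0.400; SD, n = 2). The libraries overlapped between TUBA1B and TUBB3, between TUBB4B and TUBB2B and between TUBB6 and TUBB2A. Within each of the 2 libraries TUBB4B nonetheless stood above TUBB2B and TUBB6 above TUBB2A, while TUBA1B and TUBB3 changed places between the libraries; no test of the order was made. In control 1 the highest level was that of TUBA1A (187 ± 54.9), overlapping TUBB (169 ± 54.8), and in control 2 TUBB (463 ± 101) was followed by TUBA1B (381 ± 90.9) and TUBA1A (333 ± 28.6), each overlapping the next. TUBB3 ranked 4 in all groups, TUBB4A 9 and TUBA1C 10.

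The remaining alpha and beta tubulin genes were scarce. Of 9 such genes 2 were tested, TUBA3C and TUBAL3 had no read in any library, and TUBA3D, TUBA3E, TUBA4B, TUBB1 and TUBB8 had at most 17 reads in a library. TUBA8, an alpha isotype known from testis and muscle, rose in the knockdown, to 3.93 and 3.48 CPM from 2.345 and 2.497 in control 1 and 2.11 and 2.36 in control 2 (log2FC against the mean 0.67, adjusted p = 0.0145 by edgeR). TUBA4A was not called (0.39, adjusted p = 0.457).

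Calls among genes that serve tubulin are read against the 24.3% of all rows lower and 23.9% higher than the mean of both controls. Of 14 tested genes of the gamma-tubulin complex and the delta and epsilon tubulins, which nucleate microtubules or serve centrioles, 5 fell and 2 rose against the mean of both controls (median log2FC -0.06). The subunit gene TUBGCP2 fell by 0.87 and was called against each control, and MZT1 rose by 0.65. MZT2A fell by 1.15 and TUBGCP6 by 0.58, and MZT2A was not called against control 1 alone (log2FC -0.57, adjusted p = 0.0864 by edgeR) nor TUBGCP6 against control 2 alone (-0.38, adjusted p = 0.0895). MZT1 was lowest in control 1, at 7.34 and 7.69 CPM, against 22.8 and 20.9 in the knockdown and 26.7 and 25.1 in control 2, and it was called against control 1 (log2FC 1.54) but not against control 2 (log2FC -0.25, adjusted p = 0.106 by edgeR). TUBG1, the main gamma-tubulin gene, fell by 0.50 and TUBGCP4 by 0.33, while TUBG2, the other gamma-tubulin gene, rose by 0.48. Against control 1 alone TUBG1 (log2FC -0.10, adjusted p = 0.684 by edgeR) and TUBGCP4 (-0.19, adjusted p = 0.253) were not called, whereas against control 2 they fell by 0.91 and 0.48. TUBG2 was called against control 1 (0.53) and not against control 2 (0.43, adjusted p = 0.0530 by edgeR).

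Of 21 chaperonin, prefoldin and tubulin cofactor genes, whose products fold new tubulin and join the dimer, 8 fell and 2 rose against the mean (median -0.08), beside 24.3% lower and 23.9% higher over all rows. CCT2 and TCP1, subunits of the chaperonin ring, fell by 1.15 and 1.12, CCT8 by 0.54 and the cofactor gene TBCD by 0.47. CCT2 stood at 81.0 and 79.3 CPM in the knockdown, 148 and 159 in control 1, and 201 and 210 in control 2, with no overlap. The rises were in the prefoldin genes PFDN6 (0.75) and VBP1 (0.41), and neither was called against control 2. Between the controls 12 of the 21 were higher in control 2 and 2 were lower, beside 22.8% and 20.4% of all rows.

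Of 4 genes of the tubulin mRNA control, 1 fell against the mean (median log2FC -0.17), beside 24.3% of all rows called lower. The gene that fell was CNOT1, the scaffold of the complex that shortens mRNA tails (log2FC -0.52, adjusted p = 8.71e-04 by edgeR). TTC5, which recognises the new tubulin chain, stood at 14.8 and 14.6 CPM in the knockdown against 16.6 to 17.0 in the controls (log2FC -0.19, adjusted p = 0.160). Of 22 tested tubulin-modifying enzymes 6 fell and 8 rose (median -0.17), beside the same 24.3% and 23.9% over all rows. VASH1, which removes the terminal tyrosine of alpha tubulin, fell by 1.45, and TTLL12 and TPGS2 fell by 0.93 and 0.52. AGBL2, a cytosolic carboxypeptidase gene, rose by 2.03 from low levels, from 1.21 to 2.06 CPM in the controls to 4.19 and 8.15 CPM.

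Genes of cycling cells, like the tubulin genes, had their highest summed level in control 2. The summed level of 10 such genes was 91.5 and 93.7 CPM in the knockdown, 160 and 240 in control 1, and 670 and 718 in control 2. The 10 tubulin genes summed to 1121 and 887, 1054 and 1638, and 2874 and 3692 CPM in the same libraries. Of the 10 cycling-cell genes 9 fell against the mean, beside 24.3% of all rows called lower. All 10 were higher in control 2 than in control 1 (median log2FC 2.10), beside 22.8% of all rows called higher. Against control 1 alone 7 fell and 3 were not called, beside 21.8% of all rows called lower. The proliferation marker MKI67 was at 1.14 and 0.883 CPM in the knockdown, 32.3 and 65.0 in control 1, and 196 and 209 in control 2. TOP2A, MCM2 and CCNA2, of chromosome untangling, replication and cell-cycle advance, fell by 3.89, 1.84 and 1.86 against the mean. The summed tubulin level overlapped between the knockdown and control 1, and that of the cycling-cell genes did not. The part of proliferation in the tubulin levels was not tested.

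**Figure D4:**
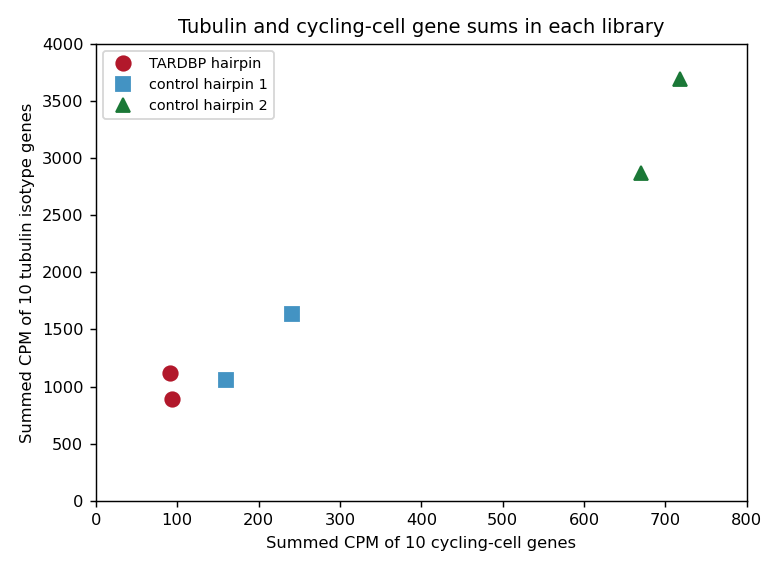
Summed CPM of the 10 tubulin isotype genes against the summed CPM of 10 cycling-cell genes, 1 point per library. Control hairpin 2 stands apart at 2874 and 3692 tubulin CPM, and the other 4 libraries lie between 887 and 1638.

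The bases before the start sites are shown for TUBB4B, a general isotype with a wide gap between the controls, and TUBB2B, a neuronal isotype that fell against both. The windows are the 250 bases upstream of the RefSeq start in build GRCh38.p14, 5′ to 3′ on the strand of the gene. Capitals mark CCAAT and TTTGAA on either strand, the CCAAT box and an element common in promoters of cell-cycle genes.
TUBB4B, chr9:137241037-137241286, plus strand: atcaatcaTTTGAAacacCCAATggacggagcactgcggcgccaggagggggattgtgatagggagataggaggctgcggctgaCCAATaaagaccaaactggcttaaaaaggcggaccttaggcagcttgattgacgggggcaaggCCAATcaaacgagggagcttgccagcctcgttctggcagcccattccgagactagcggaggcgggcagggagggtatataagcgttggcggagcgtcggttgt
TUBB2B, chr6:3227654-3227903, minus strand: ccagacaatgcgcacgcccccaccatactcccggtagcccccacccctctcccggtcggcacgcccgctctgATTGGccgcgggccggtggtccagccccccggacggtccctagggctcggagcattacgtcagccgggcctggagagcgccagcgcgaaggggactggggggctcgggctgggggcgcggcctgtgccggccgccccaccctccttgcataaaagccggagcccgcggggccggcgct

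All 10 members had at least 1 window, 16 in all. CCAAT or its reverse complement ATTGG occurred in 10 of the 16 windows, in 8 genes, against 32.0% of 35116 windows of the same length over all genes. Overlapping windows of TUBA1C held the same CCAAT, which is thus counted more than once, so the windows are not independent. TTTGAA or TTCAAA occurred in 3 of the 16, belonging to TUBB4B and TUBA1C, against 13.3% over all genes. The TUBB4B window held CCAAT 3 times and TTTGAA once, and the TUBB2B window held CCAAT once and no TTTGAA. The TUBA1B and TUBB2A windows held neither, and TUBA1B had the widest gap between the controls. The box TATAAA was also searched, and occurred in 1 of the 16 windows, for TUBB2A, against 10.7% over all genes. These are matches of letters only.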

How the data were processed

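RNA from 6 SH-SY5Y libraries had been depleted of ribosomal RNA and made into strand-specific libraries, per the labels' protocols. Per the submitters' processing notes the tools were bcl2fastq and STAR 2.5.2b, and the build hg19; the authors deposited raw counts per gene symbol and repeat family. The sources used here do not name the counter, its annotation or strand setting, or say how reads matching several genes were counted, which bears on near-identical tubulin genes. Of 28953 rows, 17163 passed edgeR's filterByExpr (minimum count 10, minimum total 15). Counts were scaled by TMM, and one quasi-likelihood model with 3 hairpin groups was fitted to all 6 libraries (R 4.3.3, edgeR 4.0.16), with Benjamini-Hochberg adjustment over all rows tested. The code was tested on simulated data. SE was obtained as the size of the log2 fold change divided by the root of the F statistic. Alternatives were DESeq2 1.42.0, other scalings and filters, a test against a 1.5-fold change, pooled controls, the replicate block and leaving out each library. Sequences came from GENCODE release 29 transcripts (GRCh38) and RefSeq promoter windows; all 10 members matched by symbol. The ends of the alpha coding sequences are not reported here. CPM + 1 was used on the log2 scale for the isotype balance.

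The members and gene lists were chosen with earlier results of these data known. Genes named are TARDBP, all members, every other alpha and beta tubulin, and up to 4 called genes with the lowest p per list, with all of counts of 5 or fewer; markers at or near 0 are named too, and TTC5 was chosen after its values were seen. Libraries of one hairpin differed by more than sampling noise (chi-square per degree of freedom 18.0 to 20.8).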

Additional observations from a re-analysis of the deposited data

How the results depend on the processing

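With 2 libraries per hairpin, 1 library can decide a call. Calls and directions of all 10 members in the 4 comparisons were the same with DESeq2, RLE size factors, library totals and genes alone. Tested against a 1.5-fold change, 6 members fell against the mean (TUBB3, TUBB and TUBA1C did not), 9 against control 2 and 2 against control 1, none rose there, and 4 were higher with control 2; rows called against the mean numbered 1435 lower and 1027 higher, against control 1 1381 and 1241, against control 2 1873 and 1108, and between the controls 626 and 1484. With the controls pooled, 2 members were called lower, with 1518 rows lower and 1054 higher. With the replicate block, and likewise without low-count filtering, 0 members rose against control 1; under the block TUBA1C also lost its call between the controls (log2FC 0.90, adjusted p = 0.0515), and the block changed no other member's call. Leaving out each library in turn, members higher in control 2 than in control 1 numbered 6 to 10 and members risen against control 1 0 to 1; rows called higher ranged over 2622 to 3625 against the mean, 2337 to 3374 against control 1, 2151 to 3950 against control 2 and 2472 to 3896 between the controls, where rows called lower numbered 1661 to 3448. Between the controls, TUBB3, TUBB2B and TUBA1C were also not called without control 2 replicate 2 (adjusted p = 0.0729, 0.0522 and 0.118 by edgeR), nor TUBA1C without replicate 1 (0.0921), and TUBB4A fell against control 2 without knockdown replicate 1 (-0.68, adjusted p = 0.0459). Uncalled differences from control 1 changed sign for TUBB3, TUBB, TUBB4B and TUBA1B without control 1 replicate 2 (log2FC 0.10, 0.24, 0.05 and 0.24) and for TUBB3 and TUBB without knockdown replicate 2 (0.01 each), as did TUBB4A against the mean without knockdown replicate 1 (-0.15). With TUBB2A left out, the neuronal minus general difference of the knockdown was 0.195 against the mean and -0.0761 against control 1. The cause of these changes was not tested. Replicate numbers did not pair the knockdown with either control. Deviations of same-numbered libraries correlated at -0.228 with control 1 and -0.247 with control 2 over 17163 rows. Between the controls they correlated at 0.232, above the 0.1 set as the least for pairing. Where a group is left with 1 library, it is assumed to vary like the others.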
